A study of Homo sapiens with 12 samples.

Results

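Aminoacyl-tRNA synthetases join each amino acid to the transfer RNA that reads its codons, so every protein made in the cytosol or in mitochondria depends on them. The genes were taken by name, as a single capital letter for the amino acid followed by ARS and 1 or 2, together with EPRS1, FARSA and FARSB. This gave 37 genes of the 22963 gene names in the expression table, of which 20 encode cytosolic enzymes (names ending in 1, FARSA and FARSB) and 17 encode mitochondrial enzymes (names ending in 2). All 37 passed the filter on low values in each comparison, and none was at 0 in any library.

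The 12 libraries came from a pair of established human liver cancer cell lines and fell into 4 groups of 3. PLC/PRF5 cells carried either the lentiviral vector alone or the vector with EGR1, a zinc-finger transcription factor, driven by a CMV promoter, and MHCC97H cells were either parental or labelled as EGR1 knockout after CRISPR/Cas9 editing. The edited lines were grown from single clones, and which clone was sequenced was not stated. Poly(A) RNA was sequenced and deposited as FPKM, fragments per kilobase of transcript divided by the mapped fragments of the library, a unit from which the sequencing depth cannot be recovered. In bulk RNA, fewer cells of a type and less RNA per cell cannot be told apart, and p-values measure the spread between these libraries, which may be technical.

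EGR1 was at 1.97, 1.43 and 2.03 FPKM in the vector libraries and 56.3, 50.2 and 52.2 with the EGR1 vector. It was at 20.2, 23.1 and 21.2 FPKM in parental MHCC97H cells and at 35.2, 50.3 and 32.9 in the libraries labelled knockout, where it was higher (log2 change 0.83 ± 0.15 SE, limma adjusted p = 0.00126, n = 3 against 3). The mRNA level as measured therefore went against the knockout label. This change is given before the GC and length correction described below. The authors report checking their knockout clones by western blot and DNA sequencing, and an mRNA level measures neither protein nor the DNA edit. An FPKM over the whole gene cannot show whether a transcript carries an edit, and those libraries are called by their label throughout. Of 10 hepatocyte markers, 9 had a mean of at least 1 FPKM in both PLC/PRF5 groups, 5 in parental MHCC97H cells and 6 in the libraries labelled knockout, with albumin at 116 ± 8.74 FPKM (SD) in the vector libraries, 201 ± 9.73 with EGR1, 0.885 ± 0.305 in parental MHCC97H cells and 15.2 ± 1.22 in the libraries labelled knockout. Albumin was higher than in the controls in both EGR1 comparisons (log2 change 0.79 and 3.11, limma adjusted p = 0.000738 and 1.61e-06), and its part in the results was not tested. With EGR1 4 of 9 hepatocyte markers tested were called higher and 0 lower, beside 19.2% and 10.4% of all genes. With the knockout label 4 of 5 tested were called higher and 0 lower, beside 34.8% and 31.5%. After the correction 3 of these 5 were called higher and 1 lower with the knockout label, beside 24.3% and 22.4%. Other markers had lower means with that label, among them APOB (1.27 and 0.150 FPKM) and HNF4A (9.64 and 7.91). Of 4 leukocyte markers CD68 alone reached a mean of 1 FPKM, of 3 endothelial markers PECAM1 alone did (2.43, 1.501, 5.10 and 5.99 FPKM in the same order of groups), and none of 3 fibroblast markers did.

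Most amino acids have one nuclear gene for the cytosolic enzyme and another, ending in 2, for an enzyme imported into mitochondria. GARS1 and KARS1 serve both compartments from a single gene, EPRS1 charges both glutamate and proline in the cytosol, and the cytosolic phenylalanine enzyme is built from equal numbers of FARSA and FARSB chains. The multisynthetase complex joins 8 of the cytosolic members (among them EPRS1, KARS1, MARS1 and QARS1) and is held together by the scaffold proteins AIMP1, AIMP2 and EEF1E1. Several cytosolic synthetase genes are known targets of ATF4, the transcription factor of the amino acid response.

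The cytosolic enzymes were more abundant than the mitochondrial ones in every group. The median over genes of the group mean was 64.4 FPKM for cytosolic and 13.0 FPKM for mitochondrial members in vector cells, 58.5 and 12.7 with EGR1, 41.3 and 9.003 in parental MHCC97H cells, and 38.9 and 8.96 in the libraries labelled knockout. Mitochondrial members made up 18.04 ± 0.275%, 19.1 ± 0.261%, 19.2 ± 0.379% and 20.3 ± 0.379% (SD, n = 3) of the summed FPKM of the 37 genes in the same order. The cytosolic members together took 0.313 ± 0.0143% of all FPKM in vector cells, 0.297 ± 0.0147% with EGR1, 0.254 ± 0.00366% in parental MHCC97H cells and 0.210 ± 0.0126% in the libraries labelled knockout.

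GARS1, the glycine enzyme of both compartments, was the most abundant member in vector libraries at 139.6, 146 and 116 FPKM, and AARS1, the alanine enzyme, was second at 107, 92.2 and 103. Over all 12 libraries GARS1 ranged from 54.2 to 146 FPKM. FARSB, a subunit of the phenylalanine enzyme, was the least abundant cytosolic member at 10.5, 9.64 and 9.87 FPKM, and LARS1, the leucine enzyme, was also low at 27.9, 26.4 and 25.9. IARS2, the mitochondrial isoleucine enzyme, led its compartment at 41.3, 51.2 and 47.5 FPKM, with CARS2, the cysteine enzyme, next at 32.8, 28.9 and 30.7. PARS2, the mitochondrial proline enzyme, was the least abundant at 3.46, 2.93 and 3.26 FPKM, and WARS2, the tryptophan enzyme, was next at 4.04, 4.00 and 5.40. PARS2 ranged from 1.99 to 3.46 FPKM over all 12 libraries. Neighbours in the order of levels were often not separable, since the library ranges of adjacent members overlapped for 28 of 36 neighbouring pairs in vector cells and 29 of 36 in the libraries labelled knockout. Within a group the coefficient of variation over 3 libraries had a median of 4.51 to 7.24% over members and reached 21.9% for WARS2 in the libraries labelled knockout.

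**Figure D1:**
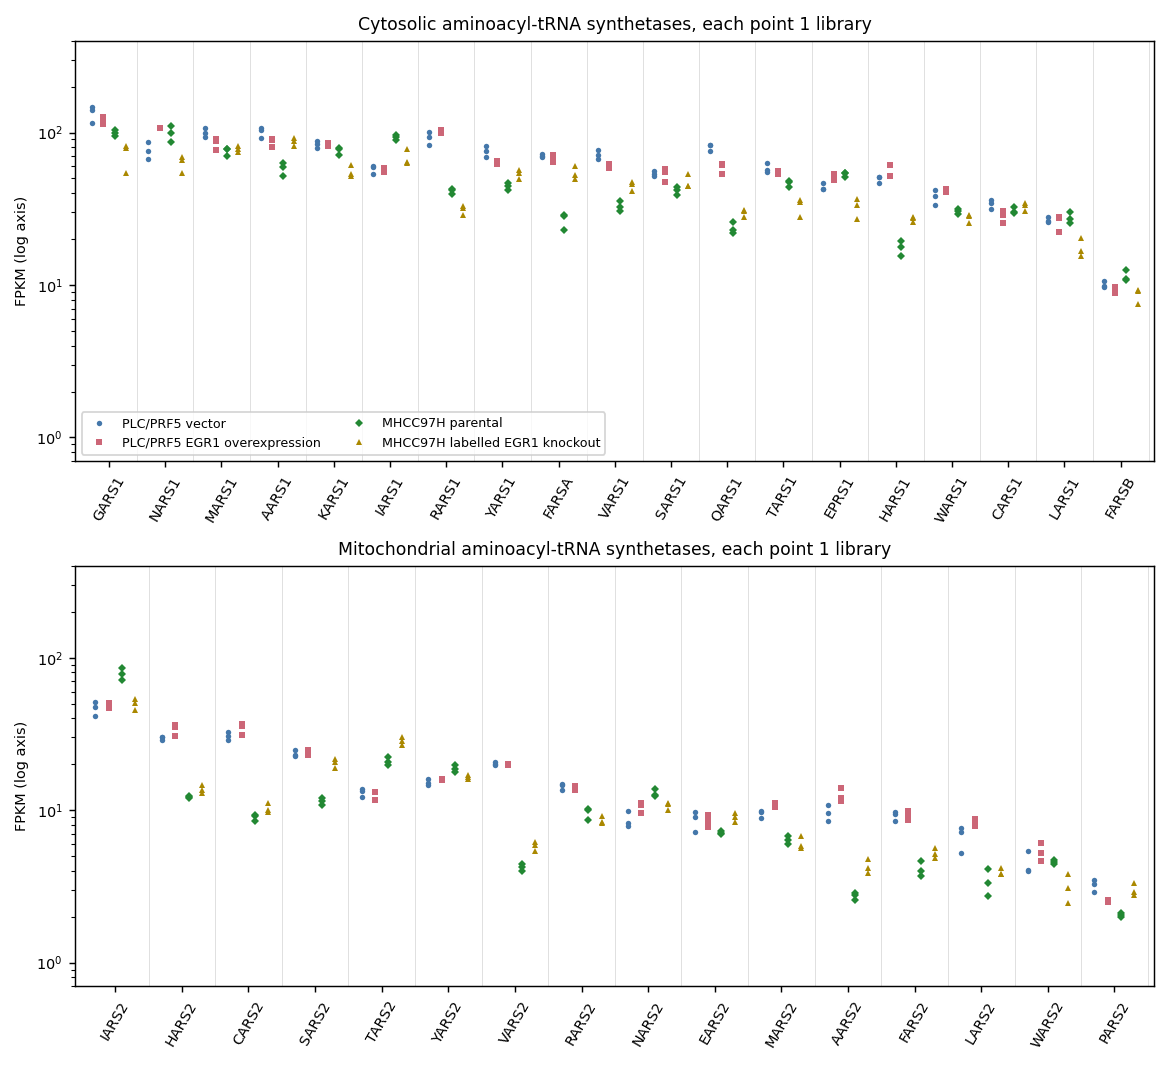
FPKM (log axis) of 35 synthetase genes in all 12 libraries, cytosolic members above and mitochondrial members below, ordered by mean level; circles are PLC/PRF5 vector, squares PLC/PRF5 with EGR1, diamonds MHCC97H parental and triangles MHCC97H labelled EGR1 knockout. Every point lies above 1 FPKM, and IARS2 has the highest mean of the mitochondrial genes in each group.

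The cytosolic and mitochondrial enzymes for the same amino acid were set against each other within each library as the log2 ratio of FPKM + 1, for 17 amino acids. The cytosolic partner was FARSA for phenylalanine and EPRS1 for both glutamate and proline. FARSB was not used, and with EGR1 its mean of 9.38 FPKM was close to the 9.28 of FARS2. The phenylalanine ratio and the counts below therefore depend on that choice. The mitochondrial gene was the lower in all 3 libraries for 16 of 17 pairs in vector cells, 16 with EGR1, 17 in parental MHCC97H cells and 15 in the libraries labelled knockout. The median log2 ratio was -2.23 in vector cells, -2.02 with EGR1, -2.43 in parental MHCC97H cells and -1.74 in the libraries labelled knockout. The widest gaps in vector and parental cells were for proline and alanine, and in parental MHCC97H cells PARS2 lay at a log2 ratio of -4.15 ± 0.05 (SD) to EPRS1 and AARS2 at -3.99 ± 0.10 to AARS1. Isoleucine was nearly balanced in all groups, with a ratio of IARS2 to IARS1 between -0.44 and -0.23.

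For cysteine the mitochondrial gene was the higher in all 3 libraries with EGR1. CARS2 exceeded CARS1 there, at log2 ratios of 0.29, 0.32 and 0.22, and lay below it in the vector libraries, at -0.12, -0.12 and -0.17. In parental MHCC97H cells CARS2 fell far short of CARS1, at -1.69, -1.62 and -1.70.

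**Figure D2:**
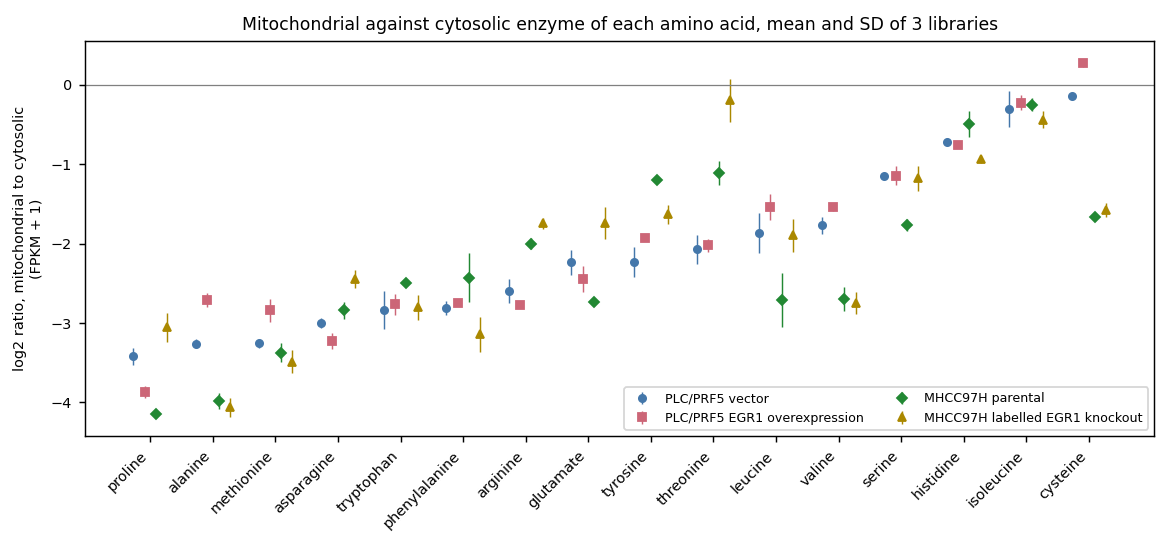
Log2 ratio of mitochondrial to cytosolic enzyme (FPKM + 1) for 16 amino acids, ordered by the ratio in vector cells; points are means of 3 libraries and bars the SD. Most points lie below 0, and cysteine crosses it.

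The first comparison asked what changed when EGR1 was added to PLC/PRF5 cells. Among the cytosolic enzymes NARS1 rose and QARS1 fell. Over all members 1 of 37 was higher and 2 were lower, 1 of them mitochondrial, at an adjusted p under 0.05 (limma on log2(FPKM + 1), with p-values adjusted over all genes tested), against 19.2% of all 11671 genes tested called higher and 10.4% called lower (29.6% in either direction). Fold changes on this scale understate the change of low genes. The median log2 change was -0.05 over cytosolic and 0.05 over mitochondrial members, beside 0.09 over all genes tested.

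NARS1 (chr18:57600656-57622213, minus strand on hg38, as are all gene positions here), the asparagine enzyme, was at 66.8, 86.0 and 75.3 FPKM in vector libraries and 106, 107 and 107 with EGR1. The 3 libraries with EGR1 were nearly equal and all lay above the vector libraries (log2 change 0.49 ± 0.10 SE, adjusted p = 0.00853 by limma). QARS1 (chr3:49095932-49105135, minus strand), the glutamine enzyme of the multisynthetase complex, was at 82.5, 75.5 and 83.2 FPKM in vector libraries and 53.1, 61.5 and 61.7 with EGR1. The groups did not overlap, and the log2 change was -0.45 ± 0.09 (SE, adjusted p = 0.00845 by limma).

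AARS2, the mitochondrial alanine enzyme, lay just outside the threshold, at 10.8, 8.50 and 9.62 FPKM in vector libraries and 11.5, 12.1 and 14.0 with EGR1 (log2 change 0.34 ± 0.11, limma adjusted p = 0.0504). The 3 libraries with EGR1 all exceeded the vector libraries for AARS2.

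Transcript GC content and length together accounted for 18.5% of the variance of log2 changes over 10994 genes in this comparison. After the part of each change that followed them was removed, 1 cytosolic member was higher and 7 were lower (median -0.17), and 3 mitochondrial members were higher and 1 was lower (median 0.05), beside 16.7% of genes called higher and 17.9% lower. The cytosolic members then lower were QARS1 (-0.43), CARS1 (-0.24), TARS1 (-0.23), YARS1 (-0.22), MARS1 (-0.21), AARS1 (-0.20) and VARS1 (-0.17), and the mitochondrial members then higher were AARS2 (0.38), CARS2 (0.20) and HARS2 (0.19). NARS1 kept its call. Leaving out vector replicate 2 raised the uncorrected count of cytosolic members called lower to 4.

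For the other 33 members no uncorrected change passed the threshold, with log2 changes from -0.26 for CARS1 to 0.28 for LARS2. Over all members the groups did not overlap for 15 of 37, and over all genes tested they did not overlap for 47.7%. Of these members 7 lay higher with EGR1 and 8 lower. Cytosolic enzymes with non-overlapping lower values were AARS1, CARS1, MARS1, QARS1, VARS1 and YARS1. Those with non-overlapping higher values were EPRS1, HARS1 and NARS1 among the cytosolic and AARS2, HARS2, LARS2 and MARS2 among the mitochondrial enzymes. Among the 8 enzymes of the multisynthetase complex QARS1 was called lower and none was called higher, whereas the scaffolds AIMP1 and EEF1E1 rose (log2 change 0.61 ± 0.16 and 0.75 ± 0.17, limma adjusted p = 0.0219 and 0.012), at 0.23 and 0.39 after correction. AIMP2 was at a log2 change of -0.21 ± 0.09.

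The second comparison set the MHCC97H libraries labelled EGR1 knockout against the parental ones. EGR1 editing, growth from a single clone and culture cannot be told apart in it. FARSA, HARS1, AARS1 and the mitochondrial SARS2 rose most, and EPRS1, NARS1 and the mitochondrial IARS2 were among the largest falls. Of the 20 cytosolic members 6 were higher and 10 lower, with a median log2 change of -0.26, and of the 17 mitochondrial members 8 were higher and 3 lower, with a median of 0.18. The cytosolic median depended on which members were counted. Without GARS1 and KARS1, which serve both compartments, 6 were higher and 8 lower, with a median of -0.05. The 12 cytosolic members outside the multisynthetase complex gave 5 higher and 4 lower, with a median of 0.14. Over all 11577 genes tested 34.8% were called higher and 31.5% lower (66.3% in either direction), with a median of 0.02. Scaling every library to a common total moved the median of all genes by -0.13 and gave 4 cytosolic members higher and 11 lower, and 3 mitochondrial members higher and 5 lower. The count of mitochondrial members higher was 5 without parental replicate 2 and 5 without replicate 1 of the libraries labelled knockout.

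The changes moved with the base composition of the transcripts. Of the 18 members whose longest coding transcript had at least 50% G and C, 12 were higher and 0 lower by the limma test. Of the 19 with less, 2 were higher, HARS1 among them, and 13 were lower. Across the 37 genes the Pearson correlation of GC content with the log2 change was 0.81 (Spearman 0.78), given as a description since all genes share the same 6 libraries. The pattern was not particular to the synthetases, as GC content and transcript length together accounted for 54.5% of the variance of log2 changes over 10969 genes, against 18.5% in the overexpression comparison.

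Removing that trend left fewer calls. After the correction 3 cytosolic members were higher and 9 lower, and 1 mitochondrial member was higher and 3 lower, beside 24.3% of genes called higher and 22.4% lower. The correlation with GC content over the 37 members was then 0.10. The called members whose change turned sign were AARS2, FARS2, FARSB, QARS1, VARS1, VARS2 and YARS1. Whether the trend arose in the cells or in library preparation was not tested.

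**Figure D3:**
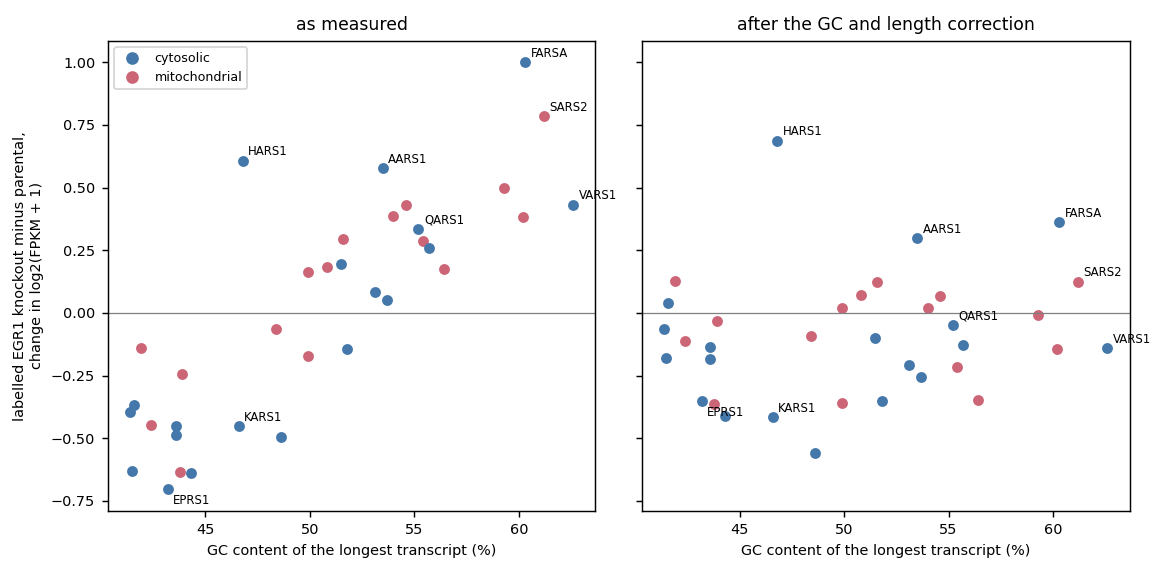
Change in log2(FPKM + 1) between MHCC97H libraries labelled EGR1 knockout and parental ones against the GC content of the longest coding transcript, for 19 cytosolic (blue) and 16 mitochondrial (red) members, as measured on the left and after the correction on the right. The points rise with GC content on the left (Pearson r = 0.84 over the 35 points) and less so on the right (0.17), where HARS1 is the highest.

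HARS1 (chr5:140673904-140691862, minus strand), the cytosolic histidine enzyme, was at 15.6, 17.7 and 19.3 FPKM in parental libraries and 27.5, 26.1 and 27.9 in those labelled knockout. The groups did not overlap, and the log2 change of 0.61 ± 0.10 (SE, limma adjusted p = 0.00076) became 0.69 after correction. Its transcript has 46.8% G and C. HARS2, its mitochondrial counterpart, is transcribed from the opposite strand, with RefSeq start sites at chr5:140691370 for HARS1 and chr5:140691455 for HARS2, and the exons of the 2 genes overlap. HARS2 was at 12.3, 11.9 and 12.1 FPKM in parental libraries and 13.6, 12.9 and 14.6 in those labelled knockout (log2 change 0.16 ± 0.09, limma adjusted p = 0.132, and 0.02 after correction). The log2 ratio of HARS2 to HARS1 went from -0.49 ± 0.16 to -0.94 ± 0.04 (SD, n = 3), without overlap, a change of -0.44 as measured and -0.67 after correction.

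FARSA (chr19:12922479-12934037, minus strand), the catalytic subunit of the cytosolic phenylalanine enzyme, was at 22.8, 28.5 and 28.6 FPKM in parental libraries and 52.3, 49.6 and 60.7 in those labelled knockout. This was the largest rise among the members (log2 change 1.00 ± 0.12 SE, limma adjusted p = 0.000135, and 0.36 after correction). FARSB (chr2:222570536-222656337, minus strand), the other subunit, was at 12.4, 10.9 and 10.8 FPKM in parental libraries and 9.23, 7.49 and 9.14 in those labelled knockout, a fall of 0.37 ± 0.11 on the log2 scale (limma adjusted p = 0.0164) that did not hold after correction, at 0.04. The log2 ratio of FARSA to FARSB therefore widened from 1.15 ± 0.29 to 2.52 ± 0.12 (SD), a change of 1.37 as measured and 0.32 after correction. FARSA has 60.3% G and C and FARSB 41.6%. In PLC/PRF5 cells the same ratio was 2.70 ± 0.03 with vector and 2.74 ± 0.03 with EGR1.

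**Figure D4:**
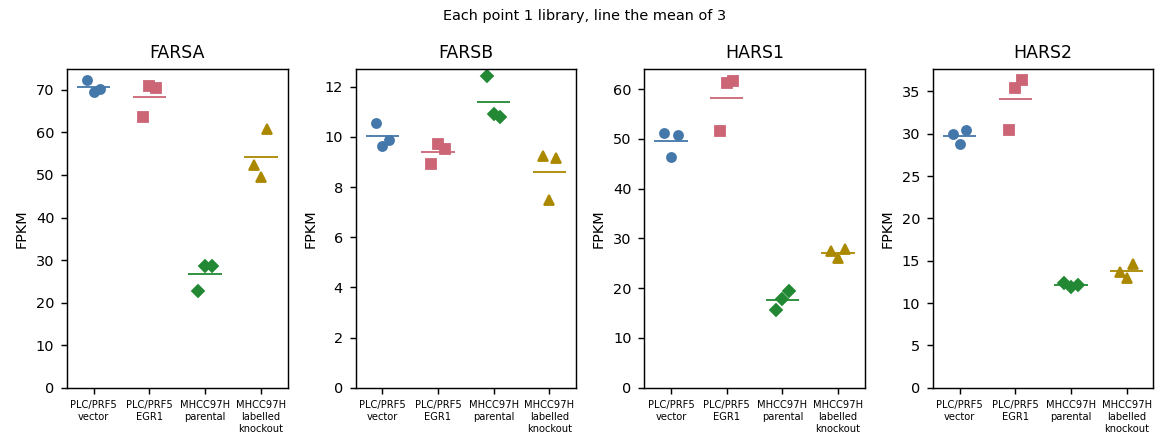
FPKM of FARSA, FARSB, HARS1 and HARS2 in each library, with the mean of 3 as a line, in the 4 groups; each vertical axis starts at 0. FARSA and HARS1 lie higher in the libraries labelled knockout than in the parental ones, while FARSB lies lower.

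AARS1 (chr16:70252295-70289543, minus strand) was at 52.0, 59.4 and 63.2 FPKM in parental libraries and 87.9, 81.3 and 92.2 in those labelled knockout, without overlap. Its log2 change was 0.58 ± 0.10 (SE, limma adjusted p = 0.000931) and 0.30 after correction. SARS2 (chr19:38915266-38930896, minus strand), the mitochondrial serine enzyme, was at 10.9, 11.4 and 12.1 FPKM in parental libraries and 21.6, 19.0 and 20.8 in those labelled knockout. Its log2 change of 0.79 ± 0.09 (limma adjusted p = 0.000142) was 0.12 after correction (limma adjusted p = 0.147). Its exons overlap those of MRPS12 on the opposite strand.

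Further rises passed the threshold as measured but not after correction for VARS1 (0.43 to -0.14), QARS1 (0.33 to -0.05) and YARS1 (0.26 to -0.13) among the cytosolic enzymes. Among the mitochondrial enzymes the same held for AARS2, TARS2, PARS2, VARS2, EARS2 and FARS2, whose measured log2 changes lay between 0.29 and 0.50 and whose corrected ones lay between -0.22 and 0.12.

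The 10 cytosolic members called lower all had under 50% G and C. EPRS1 (chr1:219968601-220046658, minus strand), which charges glutamate and proline, was at 54.0, 54.1 and 51.1 FPKM in parental libraries and 36.4, 33.7 and 27.2 in those labelled knockout. Its log2 change was -0.70 ± 0.11 (SE, limma adjusted p = 0.000652) and -0.35 after correction. The groups did not overlap.

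NARS1 was at 111, 99.3 and 86.6 FPKM in parental libraries and 66.0, 69.5 and 54.5 in those labelled knockout, again without overlap. Its log2 change was -0.64 ± 0.12 (limma adjusted p = 0.00171) and -0.41 after correction. IARS2 (chr1:220094102-220148041, plus strand), whose gene lies 47 kb from EPRS1 on chromosome 1, was at 86.2, 78.0 and 71.0 FPKM in parental libraries and 53.8, 50.8 and 45.7 in those labelled knockout. Its log2 change was -0.63 ± 0.10 (limma adjusted p = 0.000684) and -0.36 after correction.

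GARS1 and KARS1, the genes that serve both compartments, both fell, by 0.49 and 0.45 on the log2 scale, and kept changes of -0.56 and -0.42 after correction. TARS1, the threonine enzyme, was at -0.48 as measured and -0.18 after correction, both past the threshold. LARS1, the leucine enzyme, was at 29.95, 27.1 and 25.5 FPKM in parental libraries and 20.2, 15.4 and 16.8 in those labelled knockout, without overlap. LARS1 (-0.63, and -0.18 after correction), IARS1 (-0.45), RARS1 (-0.40), NARS2 (-0.24) and WARS2 (-0.45) fell as measured and did not pass the threshold after correction, at -0.18 to -0.03. Other members passed it only after correction, all of them lower, namely CARS1 (-0.21), MARS1 (-0.26), WARS1 (-0.35), CARS2 (-0.35) and YARS2 (-0.36).

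The 8 enzymes of the multisynthetase complex gave 1 higher, QARS1, and 6 lower, with MARS1 not called, and their median log2 change was -0.45 (-0.22 after correction, with 0 higher and 4 lower). AIMP1, a scaffold of that complex, was at 31.0, 26.9 and 21.7 FPKM in parental libraries and 6.84, 14.8 and 11.9 in those labelled knockout, a log2 change of -1.22 ± 0.23 (limma adjusted p = 0.00167, and -0.58 after correction). By catalytic fold, leaving out EPRS1, which holds one of each, the 18 class I enzymes gave 5 higher and 5 lower and the 18 class II enzymes 9 higher and 7 lower (0 and 6, and 4 and 5, after correction), beside the 34.8% of all genes called higher and 31.5% lower, or 24.3% and 22.4% after correction.

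**Figure D5:**
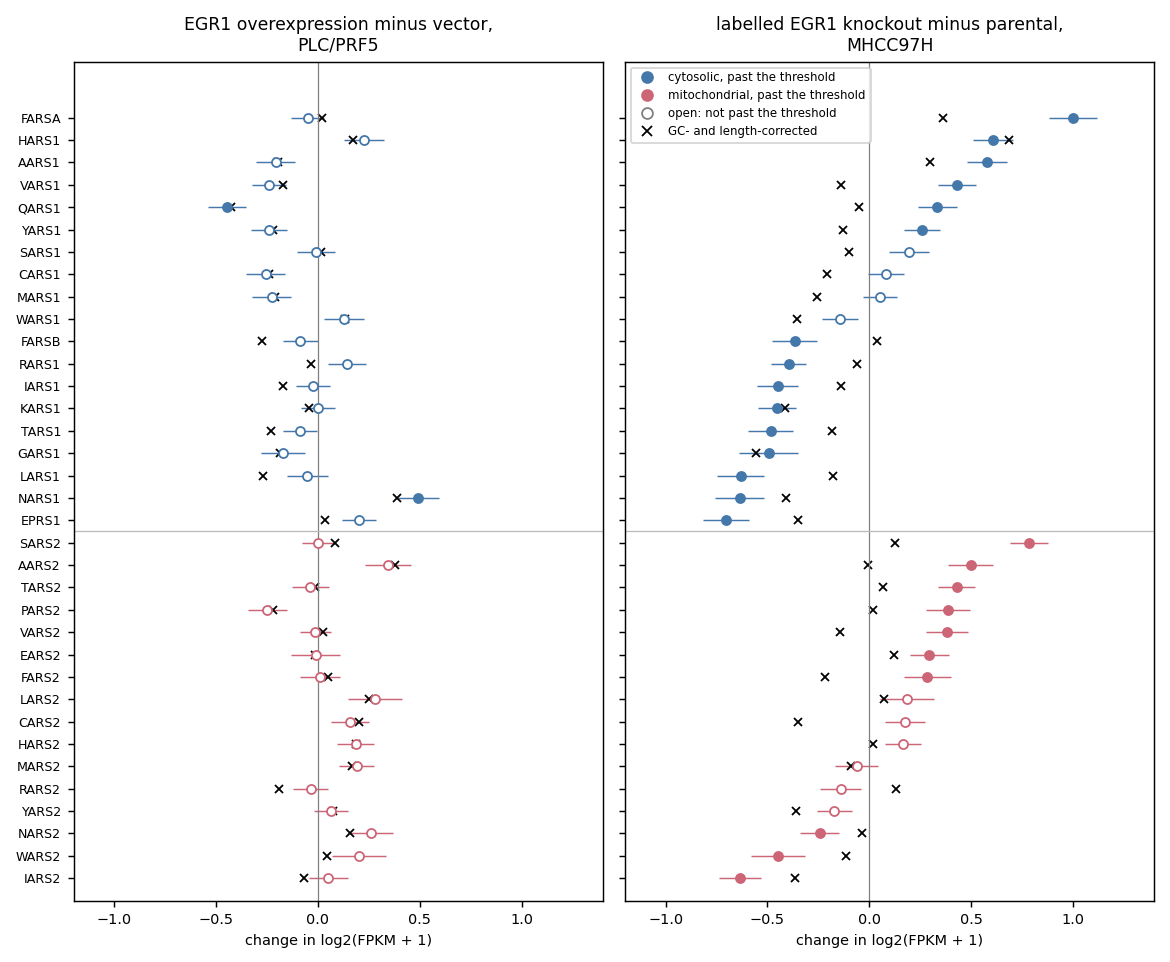
Change in log2(FPKM + 1) with its SE for 35 members, EGR1 overexpression minus vector on the left and labelled knockout minus parental on the right, cytosolic members (blue) above mitochondrial (red); filled points passed an adjusted p of 0.05 and crosses mark the GC- and length-corrected change. On the left NARS1 and QARS1 are filled, and on the right 25 of 35 points are.

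The 2 EGR1 comparisons share no library, and members called in both, among them NARS1 and QARS1, were called in opposite directions. How often all genes called in both went opposite ways is not given here, so this is not a trait of the synthetases. Over the 37 members the Pearson correlation of GC content with the measured change was -0.26 with EGR1 and 0.81 with the knockout label. With EGR1 it was -0.57 over cytosolic and 0.06 over mitochondrial members, and with the knockout label 0.82 and 0.81. NARS1 rose with EGR1 and fell in the libraries labelled knockout, and remained past the threshold in both after the correction (0.39 and -0.41). QARS1 fell with EGR1 and was at 21.9, 22.8 and 25.8 FPKM in parental libraries and 31.2, 27.8 and 30.4 in those labelled knockout, a rise of 0.33 ± 0.10 (limma adjusted p = 0.0122, 0.0548 without parental replicate 2) that was -0.05 after correction. EGR1 mRNA itself, as measured, was higher than in the control group in both comparisons.

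The ratio of mitochondrial to cytosolic enzyme separated the groups in 9 of 17 pairs with EGR1 overexpression and in 12 of 17 with the knockout label (over all single genes tested, groups did not overlap for 47.7% and 71.8%). The 5 pairs separated in both, among them asparagine, proline, arginine and tyrosine, each moved in opposite directions, also after the correction. How often other pairs of genes do so is not given here, and the asparagine ratio includes NARS1 itself. For asparagine the ratio of NARS2 to NARS1 changed by -0.23 and 0.39 (-0.23 and 0.38 after correction), and for proline that of PARS2 to EPRS1 by -0.45 and 1.09 (-0.26 and 0.37). Arginine moved the same way by smaller amounts (-0.18 and 0.26, or -0.16 and 0.19), and tyrosine the reverse (0.30 and -0.43, or 0.29 and -0.23). These ratios carry no test, since the smallest p of an exact permutation of 3 and 3 libraries is 0.1.

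The control groups of the 2 lines were compared with each other, and they are also the controls of the EGR1 comparisons above. Parental MHCC97H cells had less of most synthetase mRNAs than PLC/PRF5 vector cells. Of the cytosolic members 4 were higher and 12 lower, and of the mitochondrial members 4 were higher and 11 lower, beside 38.8% of all genes called higher and 40.9% lower (79.8% in either direction). The groups did not overlap for 81% of all genes. After the GC and length correction 3 cytosolic members were higher and 10 lower, and 4 mitochondrial members were higher and 10 lower, beside 39.4% of genes called higher and 42.1% lower, and the called members EPRS1 (0.27 to -0.10) and SARS1 (-0.37 to 0.03) turned sign. The median log2 difference was -0.34 over cytosolic and -0.51 over mitochondrial members. Quantile normalization gave 7 cytosolic members lower and a median of -0.07.

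VARS2 (chr6:30908242-30926459, plus strand), the mitochondrial valine enzyme, differed most, at 19.9, 20.2 and 20.7 FPKM in vector cells and 4.21, 4.46 and 4.01 in parental MHCC97H cells (log2 difference -2.02 ± 0.09, limma adjusted p = 8.13e-08). QARS1, at 80.4 ± 4.26 (SD) and 23.5 ± 2.04 FPKM, CARS2, at 30.8 ± 1.95 and 9.003 ± 0.446, and AARS2, at 9.65 ± 1.18 and 2.73 ± 0.154, followed. In parental MHCC97H cells CARS2 was at 8.50, 9.16 and 9.35 FPKM and AARS2 at 2.56, 2.86 and 2.77, and none of these ranges overlapped those of the vector cells. After correction the differences of VARS2, QARS1, CARS2 and AARS2 were -1.75, -1.40, -1.13 and -1.23.

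Both isoleucine enzymes were higher in parental MHCC97H cells. IARS2 stood at 41.3, 51.2 and 47.5 FPKM in vector cells and 86.2, 78.0 and 71.0 in parental MHCC97H cells (log2 difference 0.74 ± 0.11, limma adjusted p = 0.000198, and 0.48 after correction). IARS1, the cytosolic enzyme, stood at 59.1, 53.3 and 60.6 FPKM in vector cells and 96.9, 93.7 and 89.3 in parental MHCC97H cells (log2 difference 0.69 ± 0.08, limma adjusted p = 4.96e-05, and 0.36 after correction). TARS2, the mitochondrial threonine enzyme, was at 13.3, 12.1 and 13.7 FPKM in vector cells and 19.9, 20.6 and 22.3 in parental MHCC97H cells (log2 difference 0.64 ± 0.09, limma adjusted p = 0.00016, and 0.98 after correction). NARS2, the mitochondrial asparagine enzyme, was at 7.88, 9.83 and 8.19 FPKM in vector cells and 13.8, 12.6 and 12.3 in parental MHCC97H cells (log2 difference 0.53 ± 0.11, limma adjusted p = 0.00154, and 0.40 after correction). Both histidine enzymes were lower in parental MHCC97H cells, HARS1 by 1.45 ± 0.10 and HARS2 by 1.23 ± 0.08 on the log2 scale (limma adjusted p = 1.46e-06 and 8.68e-07, and -1.57 and -1.05 after correction). EGR1 and the hepatocyte markers also differed between these groups, and cell line, vector and culture cannot be told apart here.

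Promoter windows from RefSeq (GRCh38.p14, 250 bases before to 50 after each start) were found for 30 of the 37 members, and AARS2, LARS1, VARS1, VARS2 and YARS1 were among those without one. Both strands were searched for 3 motifs. The letters GCGNGGGCG of the EGR1 motif occurred in 4 of the 30 windows (13.3%) and in 9.28% of 27305 windows of the same length. They are shown because EGR1 is the factor that was varied, with the match in capitals.
FARS2 (chr6:5260996-5261024, plus strand): gccccgatccCGCCCCCGCccggaggctc
MARS2 (chr2:197705232-197705260, plus strand): gacggcgcagGCGCGGGCGgggcggggcc
RARS2 (chr6:87590103-87590131, minus strand): atttcccgcgCGCCCTCGCggctgcaggg
WARS1 (chr14:100376371-100376399, minus strand): gcctctgcccCGCCCCCGCgcgaacagcc
None of these 4 genes was called with EGR1 overexpression, where their log2 changes were 0.01 ± 0.10 for FARS2, 0.19 ± 0.09 for MARS2, -0.04 ± 0.08 for RARS2 and 0.13 ± 0.10 for WARS1. Of all genes tested 29.6% were called there in either direction. With the knockout label FARS2 alone was called (0.29, limma adjusted p = 0.0496, and -0.22 after correction), beside 66.3% of all genes. After correction WARS1 alone was called, at -0.35. The windows of NARS1 and QARS1 held no such letters, which says nothing of binding.

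The letters TGATGNAA, the composite element read by ATF4 with C/EBP factors, occurred in 7 of the 30 windows (23.3%) and in 3.67% of all windows. Of these, 6 were cytosolic members (37.5% of 16) and 1 was mitochondrial (7.14% of 14). They are shown, with the match in capitals on either strand, because ATF4 is a known regulator of cytosolic synthetase genes.
AARS1 (chr16:70289675-70289704, minus strand): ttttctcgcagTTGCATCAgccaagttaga
CARS1 (chr11:3057407-3057436, minus strand): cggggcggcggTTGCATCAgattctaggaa
IARS1 (chr9:92293692-92293721, minus strand): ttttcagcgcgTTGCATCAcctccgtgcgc
MARS1 (chr12:57488053-57488082, plus strand): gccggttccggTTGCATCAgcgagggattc
NARS1 (chr18:57621804-57621833, minus strand): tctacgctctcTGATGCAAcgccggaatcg
TARS1 (chr5:33440956-33440985, plus strand): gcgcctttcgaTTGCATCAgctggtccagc
YARS2 (chr12:32756076-32756105, minus strand): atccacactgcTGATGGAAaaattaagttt
The first base of the match was at position -187 from the start in AARS1 and -197 in YARS2, and within 15 bases of the start in the other 5. With EGR1, NARS1 rose and the others were not called, with log2 changes from -0.26 (CARS1) to 0.06 (YARS2), beside 19.2% of all genes called higher and 10.4% lower. After the correction NARS1 stayed higher and AARS1, CARS1, MARS1 and TARS1 were called lower, beside 16.7% higher and 17.9% lower. With the knockout label AARS1 rose, IARS1, NARS1 and TARS1 fell, and CARS1, MARS1 and YARS2 were not called, beside 34.8% of all genes higher and 31.5% lower. After the correction CARS1, MARS1 and YARS2 were called lower and IARS1 lost its call, beside 24.3% higher and 22.4% lower. The NRF1 motif, searched as its palindromic consensus, occurred in the MARS2 window alone, 3.33% of members against 1.36% of all windows.

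The amino acid response genes, a list of 21 that includes ATF4 and its targets, were measured beside the synthetases. With EGR1 overexpression 5 were higher and 4 lower (5 and 7 after correction), beside 19.2% of all genes called higher and 10.4% lower (16.7% and 17.9%). The rises were led by the cystine carrier SLC7A11 (log2 change 1.02 ± 0.11, 0.47 after correction) and its partner SLC3A2 (0.80 ± 0.09, 0.84), and the falls by VLDLR (-0.52 ± 0.10, -0.79) and CHAC1 (-0.45 ± 0.08, -0.34). With the knockout label 10 were higher and 8 lower of 20 tested (3 and 7 after correction), beside 34.8% of all genes higher and 31.5% lower (24.3% and 22.4%). The rises were led by NUPR1 (1.92 ± 0.13, 1.86 after correction) and CEBPB (0.91 ± 0.09, 0.16 after correction), with falls of asparagine synthetase ASNS (-1.002 ± 0.09) and SLC7A11 (-0.98 ± 0.19, -0.12 after correction). ATF4 itself was at a log2 change of -0.11 ± 0.11 and 0.52 ± 0.08 in the 2 comparisons, and at -0.06 and -0.00074 after correction, where neither passed the threshold. MTHFD2 was listed at 0 in every MHCC97H library and was not tested there.

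Of 11 other charging and editing factors 3 were higher with EGR1 and none lower, namely TRNT1 (0.58 ± 0.16), which adds the CCA end to transfer RNAs, PSTK (0.53 ± 0.16) and QRSL1 (0.30 ± 0.08), a subunit of the amidotransferase that makes mitochondrial glutaminyl-tRNA. After correction 1 was higher, PSTK (0.54), and 1 lower, DTD1 (-0.31), while TRNT1 (0.25, limma adjusted p = 0.0795) and QRSL1 (0.06, limma adjusted p = 0.549) no longer passed the threshold. Over all genes tested with EGR1 19.2% were called higher and 10.4% lower, or 16.7% and 17.9% after correction. With the knockout label DTD1 was higher (0.28 ± 0.09, 0.31 after correction) and SEPSECS (-0.57 ± 0.16) and DTD2 (-0.49 ± 0.12) were lower. The last 2 were at 0.12 and 0.02 after correction and did not pass the threshold, and the list then held 3 higher and 1 lower. Over all genes tested with the knockout label 34.8% were called higher and 31.5% lower, or 24.3% and 22.4% after correction. Of 6 cytosolic elongation factors EEF1A2 (-0.90 ± 0.11) and EEF1G (-0.46 ± 0.10) fell with EGR1 (-0.73 and -0.42 after correction), and both rose with the knockout label (1.06 ± 0.11 and 0.89 ± 0.15, or 0.31 and 0.40 after correction), where 4 of 6 were called higher. After correction 3 of the 6 were higher and 2 lower, with EEF1D going from 0.40 to -0.26 (limma adjusted p = 0.00372) and EEF2 from 0.56 to 0.02. Of 4 mitochondrial elongation factors none was called with EGR1 (TUFM at -0.04 ± 0.10), and with the knockout label TUFM rose (0.58 ± 0.09, 0.03 after correction) and GFM2 fell (-0.42 ± 0.10, -0.10 after correction).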

How the data were processed

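Poly(A) RNA of 12 libraries (4 groups of 3) was sequenced after duplex-specific-nuclease treatment. The authors deposited 1 table of FPKM per gene and library. The submitters' processing notes name StringTie and hg38. The aligner, annotation and strandedness of counting are not given in the sources used here. The depth is unknown, and no interval that needs it was computed. FPKM summed to 376335 to 437652 per library, and log2 values of replicates correlated at 0.993 to 0.997.

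Values were tested as log2(FPKM + 1) with limma 3.58.1 (R 4.3.3, intensity trend) over genes with a mean of at least 1 FPKM in the 6 libraries compared, 2-sided, with Benjamini-Hochberg adjustment over all genes tested and a threshold of 0.05. Each comparison was fitted on its own 6 libraries. Pair ratios and levels carry no test.

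Gene positions, exon overlaps, length and GC content of the longest coding transcript came from GENCODE 29, which matched 19801 of 22963 names, with 3031 of the names belonging to assembled loci. For the correction, each library's departure from the gene means was regressed on splines in GC content and log2 length (5 degrees of freedom each), and the fitted trend was subtracted, using 94.2 to 94.7% of the genes tested. Exons of 21 members overlap those of another gene, protein-coding for 12 of them (among them HARS1, HARS2, SARS2, MARS1 and VARS2), so their reads may be shared. Promoter sequences came from RefSeq. Some members are counted but are not reported one by one or drawn here.

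The settings tried were 0.1 as pseudocount, keeping genes above 0 in at least 1 library, a common total, quantile normalization, no trend, all 12 libraries in one fit, a replicate block, the correction alone and with the block, and leaving out each library. The fits were first tested on simulated data with known changes. Where a GC trend of set size was added, the uncorrected fits called 56.5 to 59.8% of unchanged genes. The corrected fits called 0.065 to 0.0904% of them.

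The synthetase genes and the gene lists were chosen with earlier results of these data known. Among the members reported, library values were given for the 4 called members with the largest rise and the 4 with the largest fall in each comparison, the 2 most and 2 least abundant of each compartment, and members called in opposite directions in the EGR1 comparisons. For the other lists the 2 largest rises and falls were named, and further genes were named after their values were seen.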

Additional observations from a re-analysis of the deposited data

How the results depend on the processing

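With EGR1 overexpression, cytosolic members called lower numbered 2 under a common total, 2 under quantile normalization, 4 in one fit of all 12 libraries, 7 after the GC and length correction, 5 with that correction and the replicate block, and 1 to 4 when each library was left out. Cytosolic members called higher numbered 1 to 2 when each library was left out, and the cytosolic median was -0.17 after the correction (with or without the block) and -0.08 to -0.03 on leaving out a library. Mitochondrial members called higher numbered 1 in the fit of all 12, 3 after the correction, 1 with the block added and 0 to 1 on leaving out a library, and those called lower 2, 2 and 0 to 2 under quantile normalization, the fit of all 12 and leaving out a library. Their median was -0.024 under quantile normalization and 0.023 to 0.10 on leaving out a library.

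With the knockout label, cytosolic members called higher numbered 3 under quantile normalization, the correction and the correction with block, and 4 to 6 on leaving out a library. The cytosolic median was -0.40 under a common total, -0.34 under quantile normalization, -0.16 after either correction and -0.30 to -0.19 on leaving out a library. Mitochondrial members called higher numbered 3 under a common total, 1 after either correction and 5 to 8 on leaving out a library, and those called lower 5 under a common total and 2 to 3 on leaving out a library. Their median was 0.23 with a pseudocount of 0.1, 0.064 under a common total, -0.0069 after either correction and 0.15 to 0.24 on leaving out a library. After either correction the change turned sign for the called members AARS2 (-0.0069), FARS2 (-0.22), FARSB (0.039), QARS1 (-0.049), VARS1 (-0.14), VARS2 (-0.14) and YARS1 (-0.13).

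Between the cell lines, cytosolic members called higher numbered 2 with the correction and block, those called lower 7 under quantile normalization, and the cytosolic median was -0.23 under a common total, -0.075 under quantile normalization and -0.25 after either correction. The mitochondrial median was -0.58 with a pseudocount of 0.1 and -0.41 under a common total. EPRS1 (-0.10) and SARS1 (0.028) turned sign after either correction. With a pseudocount of 0.1 the median pair ratio was -2.10 with EGR1, -2.66 in parental cells and -1.85 in the libraries labelled knockout. Under a common total the median level was 44.4 FPKM for cytosolic and 9.67 for mitochondrial members in parental cells, and 37.6 for cytosolic members in the libraries labelled knockout.

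Deviations of same-numbered libraries correlated at -0.132, 0.136 and -0.0758 with EGR1 overexpression, 0.0317, 0.0302 and 0.467 with the knockout label, and -0.393, -0.00823 and -0.0533 between lines, so the numbers were not taken to pair the libraries. The replicate block alone left the calls of the members in the EGR1 comparisons as they were, and between lines EPRS1 and YARS2 lost theirs (3 cytosolic and 3 mitochondrial members higher). Members that lost a call without 1 library included EARS2, FARS2, FARSB, NARS2, QARS1 and YARS1 with the knockout label, and NARS1, WARS1 and YARS2 between lines. Under all 15 settings 2 of 3, 9 of 27 and 22 of 31 called members kept their calls in the 3 comparisons. The cause of these shifts was not tested, and the unknown depth limits what the low-level mitochondrial members can show.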
